A study of Mus musculus with 12 samples.

Results

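Complex I (NADH:ubiquinone oxidoreductase) is the entry point of the mitochondrial respiratory chain, and its nuclear-encoded genes are described here in infarcted and sham-operated mouse left ventricles. The members are all genes whose symbol starts with Nduf. The files list 46 of them among 17471 genes, each in all 12 libraries, and all 46 passed the filter on low counts that left 13678 genes for testing. They comprise 36 structural subunits and 8 Ndufaf assembly factors. The remaining 2 carry the name but are not subunits of complex I. Ndufa4 is now known as a subunit of complex IV, and Ndufa4l2 is its paralogue. The subunits were sorted by their place in the complex into the N module (10 genes), the Q module (6), the proximal membrane arm (9) and the distal membrane arm (11).

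The N module at the tip of the peripheral arm oxidises NADH, and iron-sulfur clusters carry the electrons to the Q module, where ubiquinone is reduced. The membrane arm pumps protons, and the mitochondrial genome encodes its core subunits, which are not among the Nduf genes. Accessory subunits surround the core and are needed for assembly or stability. Assembly factors bind intermediates during biogenesis and are absent from the finished enzyme. Heart muscle is rich in mitochondria and depends on oxidative phosphorylation.

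Hearts were taken 4 days after surgery, from mice 6 to 10 weeks old that all carried floxed Yap and all ate a tamoxifen citrate diet from the operation on. In the hearts with myocardial infarction (MI) the left anterior descending coronary artery was permanently ligated, and the other hearts had a sham operation. Cre-positive animals had 1 copy of the tamoxifen-inducible recombinase MerCreMer at their own Postn (Periostin) locus, which is active mainly in activated fibroblasts, and so lack 1 intact Postn copy, whereas Cre-negative animals kept both. The 4 groups were Cre-positive MI, Cre-negative MI, Cre-positive sham and Cre-negative sham, with n = 3 libraries each, numbered only. Nothing in the labels says more about the replicates, so p-values measure the spread between these samples, which may be technical.

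Total expected counts were 10257675 to 15176286 per library. Levels are given as CPM, the count relative to a library size scaled by TMM, or as FPKM where genes are compared with each other. Yap1 had 93.9, 92.9 and 91.1 CPM in Cre-positive MI hearts, against 84.6, 96.4 and 94.0 CPM in Cre-negative MI hearts, with no call in whole-ventricle RNA (log2 fold change 0.02 ± 0.09 (SE), adjusted p = 0.97). In the Cre-positive sham hearts Yap1 stood at 121, 102 and 107 CPM, against 116, 115 and 114 CPM in the Cre-negative sham hearts (-0.06 ± 0.09, adjusted p = 0.84). Postn was lower in Cre-positive than in Cre-negative sham hearts (-3.36 ± 0.32, adjusted p = 0.0023). After MI it had 603, 628 and 674 CPM in Cre-positive hearts, against 1590, 1528 and 1729 CPM in Cre-negative hearts. That difference was not called (-1.35 ± 0.28, adjusted p = 0.20), although the libraries were far apart. Heart muscle was plain in all groups, with 13 cardiomyocyte markers such as Tnni3 and Myl2 summing to 54016 to 92123 CPM in MI hearts and 88464 to 155733 CPM in sham hearts. Cre-positive sham replicate 2 stood apart, with Myh7, the slow myosin heavy chain, at 34061 CPM where the rest of the sham group had 377 to 2938 CPM.

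The 46 Nduf genes together took 0.980 to 1.04% of all counts in Cre-positive MI hearts and 0.792 to 0.925% in Cre-negative MI hearts. The share was 1.15 to 1.44% in Cre-positive sham hearts and 1.37 to 1.42% in Cre-negative sham hearts. Per transcript length, the median subunit stood at 307 FPKM in Cre-positive MI, 270 FPKM in Cre-negative MI, 404 FPKM in Cre-positive sham and 424 FPKM in Cre-negative sham hearts. Ndufb8, of the distal membrane arm, had the highest FPKM of the subunits in each group and Ndufs4, of the N module, the lowest, at 1112 and 104 FPKM in the Cre-negative sham hearts. The order in between was graded. Of 35 neighbouring pairs of subunits ranked by FPKM in these hearts, 29 had libraries that overlapped. The assembly factors were far less abundant, at 6.84 FPKM (Ndufaf5) to 43.0 FPKM (Ndufaf8) in the same hearts. The rank order of the 36 subunits was nearly the same in each pair of groups, with Spearman's rho of 0.978 to 0.995 across genes, which share libraries and are not independent.

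After infarction the complex I genes were lower as a body. In Cre-positive hearts 35 of 36 subunits were called lower, and all 36 had a log2 fold change below 0. Their median was -0.63, or 35.2% less than in sham hearts, while the median of all genes tested was 0.02. In Cre-negative hearts all 36 subunits fell, with a median of -0.90, or 46.4% less than in sham hearts, against 0.02 for all genes tested. The test was edgeR's quasi-likelihood test with Benjamini-Hochberg adjustment over all tested genes, and a call means an adjusted p under 0.05. In counts of genes that fell or rose, only called genes are counted. Fewer cells of a type and less RNA per cell cannot be told apart in whole tissue.

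Of the 46 members, 40 were called lower and 1 higher in Cre-positive hearts, where 45.2% of all tested genes were called, 19.5% lower and 25.7% higher. MI and sham libraries did not overlap for 36 members that were lower and 1 that was higher there, against 21.9% and 29.3% of all tested genes. In Cre-negative hearts 42 members were lower and 1 higher, where 54.3% of all tested genes were called, 24.4% lower and 29.9% higher. Libraries were apart for 44 lower and 1 higher member, against 31.7% and 36.1% of all tested genes. The cardiomyocyte markers were called lower in 8 of 13 cases in Cre-positive hearts (median -0.63) and in 12 of 13 in Cre-negative hearts (median -1.04).

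The 7 nuclear-encoded core subunits, which carry the redox centres and the ubiquinone site, all fell in both genotypes. Ndufv1, the flavin-bearing subunit that binds NADH (gene 17995, chr19:4007499-4012755, GRCm38.p6), changed most of all members in both genotypes. Its level was 478, 516 and 436 CPM in Cre-positive MI hearts, against 946, 947 and 846 CPM in Cre-positive sham hearts. In Cre-negative hearts it was 373, 356 and 378 CPM after MI, against 897, 741 and 835 CPM after sham. The highest MI library was far below the lowest sham library in either genotype. The log2 fold change was -0.94 ± 0.11 in Cre-positive (SE; adjusted p = 2.2e-05) and -1.16 ± 0.11 in Cre-negative hearts (adjusted p = 2.9e-06).

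Ndufs1, the largest subunit, which holds several iron-sulfur clusters of the N module, had 510, 514 and 466 CPM in Cre-positive MI hearts, against 735, 720 and 891 CPM in Cre-positive sham hearts. In Cre-negative hearts it had 345, 398 and 416 CPM after MI, against 885, 808 and 855 CPM after sham. The groups were wide apart, with log2 fold changes of -0.66 ± 0.11 in Cre-positive (adjusted p = 0.00054) and -1.14 ± 0.11 in Cre-negative hearts (adjusted p = 5.6e-06). Ndufv2, which also carries an iron-sulfur cluster in the N module, changed least of the core. It had 390, 385 and 383 CPM in Cre-positive MI hearts, against 598, 442 and 654 CPM in Cre-positive sham hearts (-0.55 ± 0.14, adjusted p = 0.0058). The Cre-negative levels were 277, 344 and 337 CPM after MI, against 573, 589 and 606 CPM after sham (-0.88 ± 0.14, adjusted p = 0.00017).

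In the Q module, Ndufs7, which lines the ubiquinone-binding site, had 268, 279 and 301 CPM in Cre-positive MI hearts, against 554, 441 and 486 CPM in Cre-positive sham hearts (-0.80 ± 0.11, adjusted p = 0.00013). Cre-negative hearts had 202, 240 and 232 CPM after MI, against 468, 453 and 525 CPM after sham (-1.10 ± 0.11, adjusted p = 7.3e-06). The gap between MI and sham was clear in both.

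Ndufs3, which enters an early assembly intermediate, had 288, 286 and 256 CPM in Cre-positive MI hearts, against 513, 397 and 447 CPM in Cre-positive sham hearts (-0.71 ± 0.12, adjusted p = 0.00043). Its levels in Cre-negative hearts were 210, 241 and 246 CPM after MI, against 464, 387 and 438 CPM after sham (-0.89 ± 0.12, adjusted p = 5.5e-05). The groups were apart in both genotypes. Ndufs8, a carrier of iron-sulfur clusters, had 153, 155 and 160 CPM in Cre-positive MI hearts, against 297, 155 and 276 CPM in Cre-positive sham hearts (-0.64 ± 0.19, adjusted p = 0.018). In Cre-negative hearts it had 115, 141 and 144 CPM after MI, against 244, 293 and 266 CPM after sham (-1.01 ± 0.19, adjusted p = 0.00091). MI and sham overlapped in Cre-positive hearts through sham replicate 2, and did not in Cre-negative hearts. The Cre-positive adjusted p of Ndufs8 was 0.051 without Cre-positive MI replicate 1, 0.070 without Cre-positive sham replicate 1 and 0.060 without Cre-positive sham replicate 3.

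**Figure D1:**
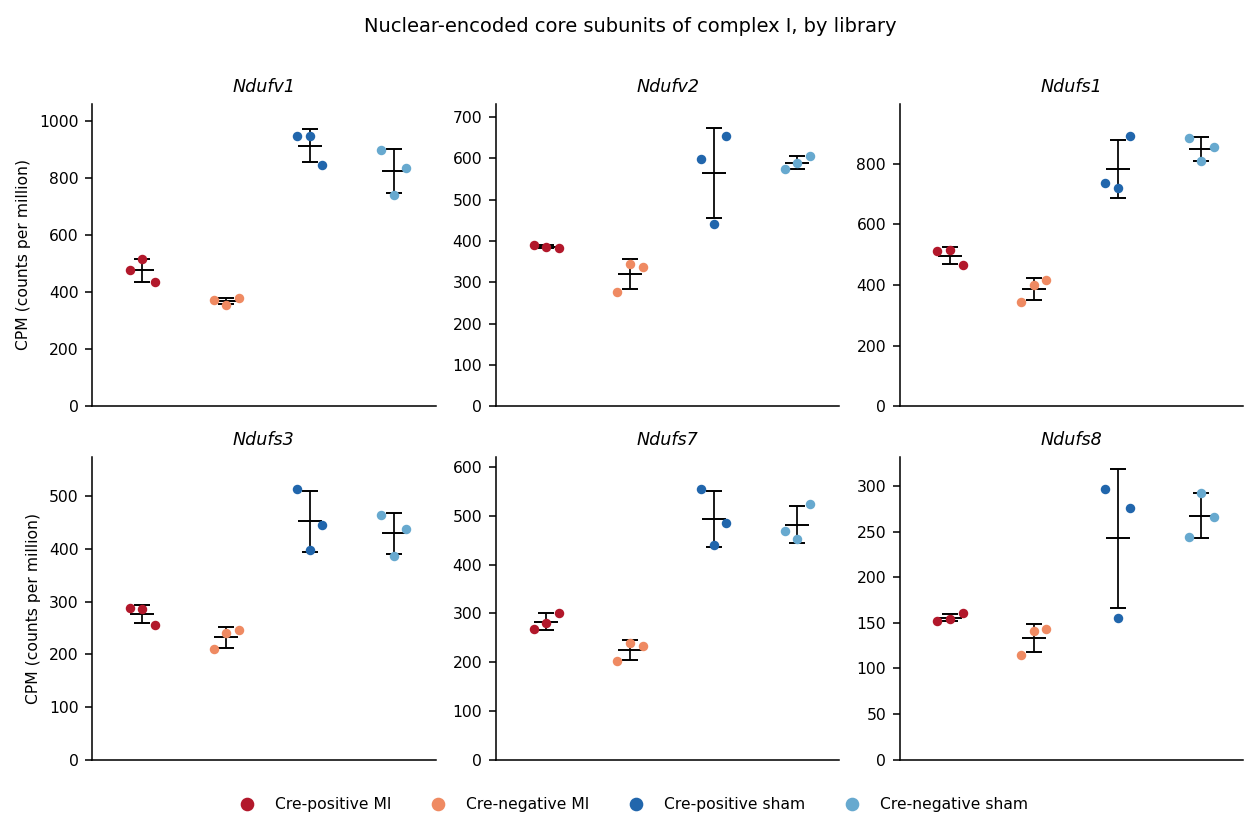
CPM (vertical axes, from 0) of 6 nuclear-encoded core subunits in the 12 libraries, grouped from left to right as Cre-positive MI, Cre-negative MI, Cre-positive sham and Cre-negative sham. Points are libraries, the horizontal tick is the mean and the bars are the SD (n = 3); the Cre-negative MI points lie below all Cre-positive MI points for each gene, and the Ndufs8 point of Cre-positive sham replicate 2 (155 CPM) falls among the MI points.

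The accessory subunits moved in the same range. In Cre-positive hearts 28 of 29 were called lower and all 29 were below 0, with a median of -0.59. Among all tested genes 19.5% were called lower there. In Cre-negative hearts all 29 were called lower, with a median of -0.88, where 24.4% of all tested genes were. By place in the complex the subunit medians in Cre-positive hearts were -0.60 in the N module, -0.68 in the Q module, -0.58 in the proximal and -0.62 in the distal membrane arm. In Cre-negative hearts they were -0.87, -0.99, -0.85 and -0.90 in the same modules.

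Ndufa5, of the Q module, had 174, 181 and 198 CPM in Cre-positive MI hearts, against 239, 280 and 352 CPM in Cre-positive sham hearts (-0.66 ± 0.14, adjusted p = 0.0025). The Cre-negative levels were 129, 146 and 161 CPM after MI, against 283, 334 and 342 CPM after sham (-1.14 ± 0.14, adjusted p = 3.6e-05). Its Cre-positive sham libraries spread more widely than the other groups. Ndufa3, a small subunit of the proximal arm, had 185, 186 and 176 CPM in Cre-positive MI hearts, against 265, 333 and 317 CPM in Cre-positive sham hearts (-0.74 ± 0.11, adjusted p = 0.00016). Cre-negative hearts had 132, 152 and 157 CPM after MI, against 297, 338 and 317 CPM after sham (-1.11 ± 0.11, adjusted p = 5.0e-06). Ndufa10, an accessory subunit of the proximal arm, had 443, 407 and 394 CPM in Cre-positive MI hearts, against 777, 577 and 725 CPM in Cre-positive sham hearts (-0.74 ± 0.13, adjusted p = 0.00061). MI and sham were apart for all of these genes.

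Ndufb9, an LYR-motif protein that binds acyl carrier protein in the distal arm, had 422, 434 and 408 CPM in Cre-positive MI hearts, against 680, 684 and 708 CPM in Cre-positive sham hearts (-0.71 ± 0.09, adjusted p = 4.9e-05). Its levels in Cre-negative hearts were 295, 335 and 347 CPM after MI, against 679, 670 and 690 CPM after sham (-1.06 ± 0.09, adjusted p = 1.7e-06). The 6 sham libraries lay within a narrow band. Ndufa11, of the proximal arm, changed least of the subunits, at -0.37 ± 0.15 in Cre-positive hearts (adjusted p = 0.063, not called) and -0.52 ± 0.15 in Cre-negative hearts (adjusted p = 0.011). Across the 36 subunits, Spearman's rho between log2 fold change and mean CPM was -0.61 in Cre-positive and -0.55 in Cre-negative hearts, that is, more abundant genes had larger falls. With transcript length rho was -0.09 in Cre-positive and -0.05 in Cre-negative hearts. These are descriptions across genes that share libraries.

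The 250 bases before each annotated start were searched on both strands for letters bound by 4 known regulators of complex I subunit genes. The part of these regulators in the lower levels was not tested. RefSeq promoters (GRCm38.p6) were at hand for 32 of 36 subunits and 13822 of 17471 genes in the files. The NRF1 motif, GCGCA, any base and GCGC, stood before 6 subunits (18.8%), against 7.26% of all genes with a promoter. ATGGCGG, bound by YY1, stood before 3 subunits (9.38%), against 3.60% of all genes, and CCGGAAG, bound by ETS factors such as NRF-2, before 3 (9.38%), against 12.4%. TNAAGGTCA, bound by the estrogen-related receptors, stood before 1 subunit (3.13%), against 1.04% of all genes. The motifs can overlap in letters, base composition was not matched, and a match is not a bound site. The windows printed are those of Ndufb4, with motifs of 2 of these regulators and 4 matches in all, Ndufs6 with 1 match, and Ndufv1, the member with the largest fall and 0 matches, each 5′ to 3′ on the gene's strand with matches in capitals (minus strand, chr16:37654369-37654618, chr13:73328483-73328732 and chr19:4012756-4013005).
Ndufb4: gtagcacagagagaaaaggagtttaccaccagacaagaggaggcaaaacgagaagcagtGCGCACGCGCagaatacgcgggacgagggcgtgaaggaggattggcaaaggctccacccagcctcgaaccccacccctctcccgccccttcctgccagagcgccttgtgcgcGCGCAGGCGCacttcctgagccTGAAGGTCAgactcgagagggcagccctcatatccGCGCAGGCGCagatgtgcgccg
Ndufs6: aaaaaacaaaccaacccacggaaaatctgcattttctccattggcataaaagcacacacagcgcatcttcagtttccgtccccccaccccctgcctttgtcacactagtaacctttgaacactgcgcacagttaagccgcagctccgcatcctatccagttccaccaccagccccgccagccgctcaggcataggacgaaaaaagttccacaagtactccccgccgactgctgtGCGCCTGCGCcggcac
Ndufv1: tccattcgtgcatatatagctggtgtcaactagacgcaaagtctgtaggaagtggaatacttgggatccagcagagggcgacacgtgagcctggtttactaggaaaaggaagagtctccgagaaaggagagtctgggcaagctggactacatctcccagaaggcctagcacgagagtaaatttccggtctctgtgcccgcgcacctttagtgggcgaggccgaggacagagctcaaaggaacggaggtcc

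In Cre-positive hearts the log2 fold changes of MI over sham were -0.66 ± 0.10 for Ndufb4, -0.64 ± 0.12 for Ndufs6 and -0.94 ± 0.11 for Ndufv1 (adjusted p = 0.00022, 0.00077 and 2.2e-05). In Cre-negative hearts they were -1.02 ± 0.10, -1.06 ± 0.12 and -1.16 ± 0.11 for the same genes (adjusted p = 5.2e-06, 1.2e-05 and 2.9e-06). All 36 subunits were below 0 in both genotypes, so nothing about the motifs is read from the falls of these genes.

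Several Cre-positive calls were marginal and were lost when a single library was left out. Ndufs4, an accessory subunit of the N module whose loss causes Leigh syndrome in humans, had 111, 114 and 110 CPM in Cre-positive MI hearts, against 161, 114 and 169 CPM in Cre-positive sham hearts. The lowest sham library lay only just above the highest MI library, and the log2 fold change was -0.40 ± 0.14 (adjusted p = 0.029). That adjusted p was 0.059 to 0.10 when any Cre-positive MI library, or Cre-positive sham replicate 1 or 3, was left out. Without Cre-positive sham replicate 2, 42 members were lower and 0 higher, the subunit median was -0.74 and Ndufa11 fell (-0.58, adjusted p = 0.00074). That library was the lowest of the 6 sham libraries in 37 of 46 members, at a median of 0.81 times the mean of the others. Its cardiomyocyte marker sum was also the lowest after sham surgery, at 88464 CPM where the others had 126935 to 155733 CPM. Of these sums Myh6 made up 14335 CPM in this library and 39835 to 53144 CPM in the others, while Myh7 is not among the markers. The part of these differences in the result was not tested.

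**Figure D2:**
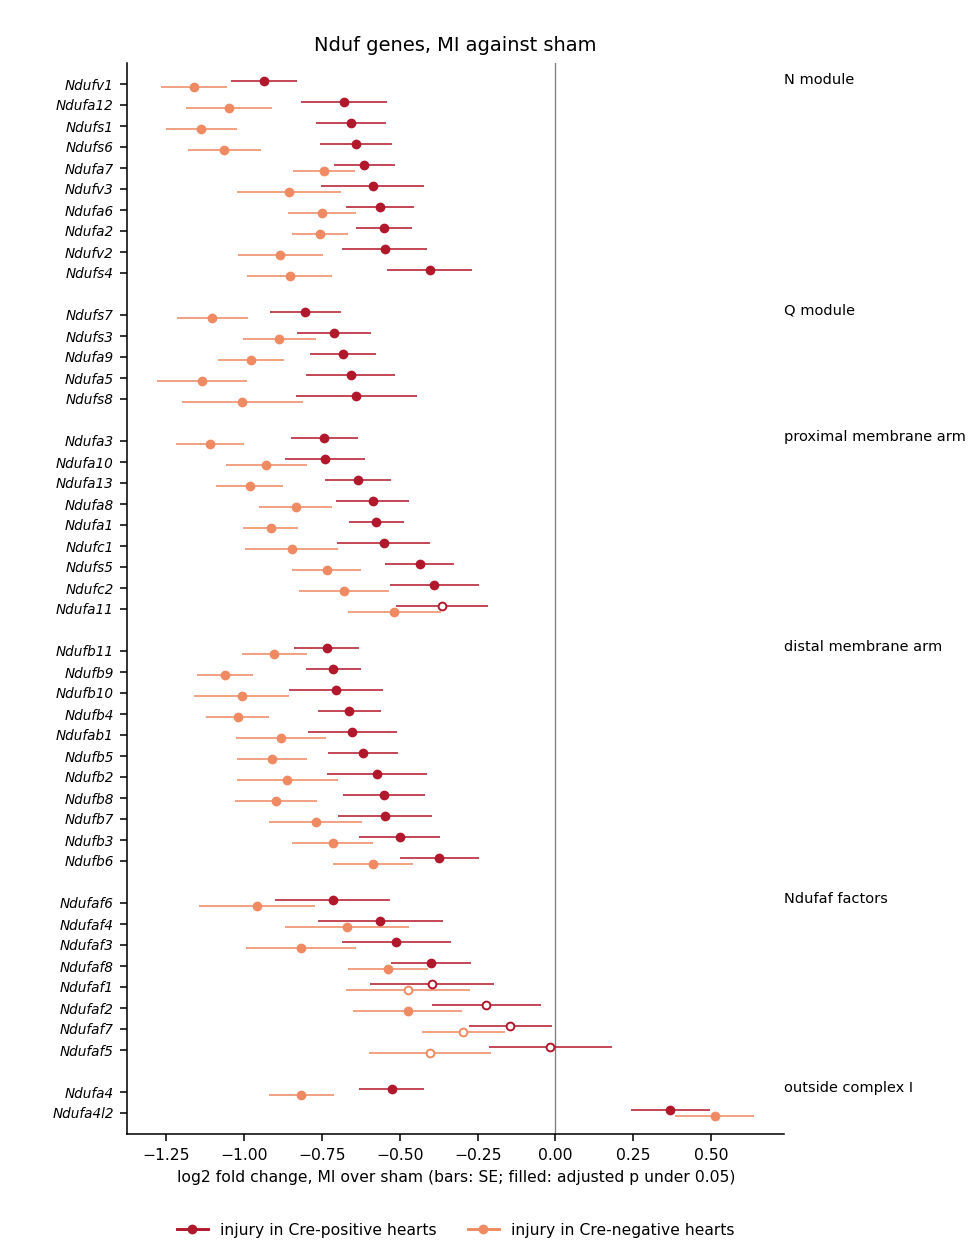
Log2 fold change of MI over sham (horizontal axis) with its SE for 45 Nduf genes, in Cre-positive (upper, dark red) and Cre-negative hearts (lower, orange), by place in complex I. Filled points are called at an adjusted p under 0.05; all subunits shown lie below 0, between -1.16 and -0.37, and Ndufa4l2 alone lies above 0 in both genotypes.

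The assembly factors had smaller and less certain changes. In Cre-positive hearts 4 of 8 were called lower, with a median of -0.40, where 19.5% of all tested genes were called lower. In Cre-negative hearts 5 of 8 were called lower, with a median of -0.51, where 24.4% of all tested genes were. These counts depended on the setting. With only the groups compared in the fit, 1 of 8 was called lower in Cre-positive and 8 of 8 in Cre-negative hearts. With limma on log2(FPKM + 1) it was 0 in Cre-positive and 2 in Cre-negative hearts. The authors' deposited table had 2 in Cre-positive and 7 in Cre-negative hearts. All 8 were below 0 in both genotypes. MI and sham overlapped for 5 of them in Cre-positive and for 1 in Cre-negative hearts. The largest change was that of Ndufaf6, an early-acting factor, which had 10.1, 8.20 and 8.76 CPM in Cre-positive MI hearts, against 18.7, 10.4 and 15.4 CPM in Cre-positive sham hearts (-0.72 ± 0.19, adjusted p = 0.0076). In Cre-negative hearts it had 7.42, 8.37 and 8.94 CPM after MI, against 15.8, 15.3 and 17.0 CPM after sham (-0.96 ± 0.19, adjusted p = 0.00091). The groups were apart in both genotypes, and both calls were kept whichever library was left out.

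Ndufaf3 and Ndufaf4 act as partners in building the Q module. Ndufaf3 had 18.2, 17.3 and 21.1 CPM in Cre-positive MI hearts, against 32.3, 20.0 and 28.4 CPM in Cre-positive sham hearts (-0.51 ± 0.17, adjusted p = 0.031). The Cre-negative levels were 11.9, 16.0 and 16.7 CPM after MI, against 25.0, 27.7 and 25.9 CPM after sham (-0.82 ± 0.18, adjusted p = 0.0019). MI and sham overlapped in Cre-positive but not in Cre-negative hearts. Ndufaf4 had 37.4, 53.5 and 57.3 CPM in Cre-positive MI hearts, against 68.8, 61.0 and 89.1 CPM in Cre-positive sham hearts (-0.56 ± 0.20, adjusted p = 0.037). Cre-negative hearts had 35.1, 50.8 and 54.2 CPM after MI, against 67.2, 71.8 and 83.9 CPM after sham (-0.67 ± 0.20, adjusted p = 0.014, or 0.059 without Cre-negative MI replicate 1). Replicate 1 was the lowest MI library of Ndufaf4 in both genotypes.

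Ndufaf8, which stabilises Ndufaf5 in human cells, had 16.3, 16.4 and 18.5 CPM in Cre-positive MI hearts, against 26.9, 19.7 and 20.8 CPM in Cre-positive sham hearts (-0.40 ± 0.13, adjusted p = 0.023). Its levels in Cre-negative hearts were 13.7, 14.5 and 16.1 CPM after MI, against 22.1, 21.2 and 20.9 CPM after sham (-0.54 ± 0.13, adjusted p = 0.0039). The groups were apart, narrowly so in Cre-positive hearts. The Cre-positive calls of Ndufaf3, Ndufaf4 and Ndufaf8 were lost without Cre-positive MI replicate 1 or 2 (adjusted p = 0.054 to 0.14). They were also lost without Cre-positive sham replicate 1 for Ndufaf3 and Ndufaf8 (0.12 and 0.084) and without Cre-positive sham replicate 3 for Ndufaf3 and Ndufaf4 (0.072 and 0.13).

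Ndufaf2, a late-acting paralogue of Ndufa12, had 12.1, 13.9 and 16.7 CPM in Cre-positive MI hearts, against 15.1, 14.8 and 19.9 CPM in Cre-positive sham hearts (-0.22 ± 0.18, adjusted p = 0.32). In Cre-negative hearts it had 11.1, 13.0 and 15.1 CPM after MI, against 15.1, 20.4 and 18.9 CPM after sham (-0.47 ± 0.18, adjusted p = 0.037). The Cre-negative groups almost touched, and the call was lost without Cre-negative MI replicate 1 or 2 or Cre-negative sham replicate 2 or 3 (adjusted p = 0.081 to 0.14). Ndufaf1, of the MCIA complex that builds the membrane arm, had 29.7, 34.1 and 30.5 CPM in Cre-positive MI hearts, against 36.8, 34 and 53.6 CPM in Cre-positive sham hearts (-0.40 ± 0.20, adjusted p = 0.12). The Cre-negative levels were 22.9, 37.1 and 27.9 CPM after MI, against 37.5, 36.5 and 47.8 CPM after sham (-0.47 ± 0.20, adjusted p = 0.062). Its MI and sham libraries overlapped in both genotypes. Ndufaf1 was called lower in Cre-positive hearts without Cre-positive sham replicate 2 (adjusted p = 0.034), and in Cre-negative hearts without Cre-negative MI replicate 2 or Cre-positive sham replicate 2 or 3 (adjusted p = 0.016 to 0.029). DESeq2 and the fit of only the groups compared also called Ndufaf1 lower in Cre-negative hearts (adjusted p = 0.040 and 0.041). The authors' deposited table had it lower in Cre-negative hearts (adjusted p = 0.020) but not in Cre-positive hearts (adjusted p = 0.12).

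Both assembly factors known to modify arginine residues of subunits were not called by the edgeR test on all 12 libraries. Ndufaf7, an arginine methyltransferase, had 24.3, 25.1 and 24.9 CPM in Cre-positive MI hearts, against 31.8, 22.4 and 28.0 CPM in Cre-positive sham hearts (-0.15 ± 0.13, adjusted p = 0.40). Cre-negative hearts had 20.9, 23.3 and 22.8 CPM after MI, against 31.1, 24.1 and 27.0 CPM after sham (-0.30 ± 0.13, adjusted p = 0.079). The lowest Cre-positive sham value lay below all 3 MI values. Ndufaf5, which hydroxylates Ndufs7, had 15.9, 16.9 and 16.7 CPM in Cre-positive MI hearts, against 20.8, 10.7 and 18.5 CPM in Cre-positive sham hearts (-0.02 ± 0.20, adjusted p = 0.95). Its levels in Cre-negative hearts were 12.7, 16.6 and 16.2 CPM after MI, against 19.2, 19.5 and 21.5 CPM after sham (-0.40 ± 0.20, adjusted p = 0.10). For both genes all Cre-negative MI libraries lay below the sham libraries. In Cre-negative hearts Ndufaf5 was called lower without Cre-positive sham replicate 2 (adjusted p = 0.0077), and Ndufaf7 without Cre-positive sham replicate 1 or 2 or Cre-negative sham replicate 2 (adjusted p = 0.023 to 0.043). With only the groups compared in the fit, Ndufaf5 and Ndufaf7 were both called lower there (adjusted p = 0.021 and 0.048). The authors' deposited table had Ndufaf5 lower in Cre-negative hearts (adjusted p = 0.026) but not Ndufaf7 (adjusted p = 0.070).

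**Figure D3:**
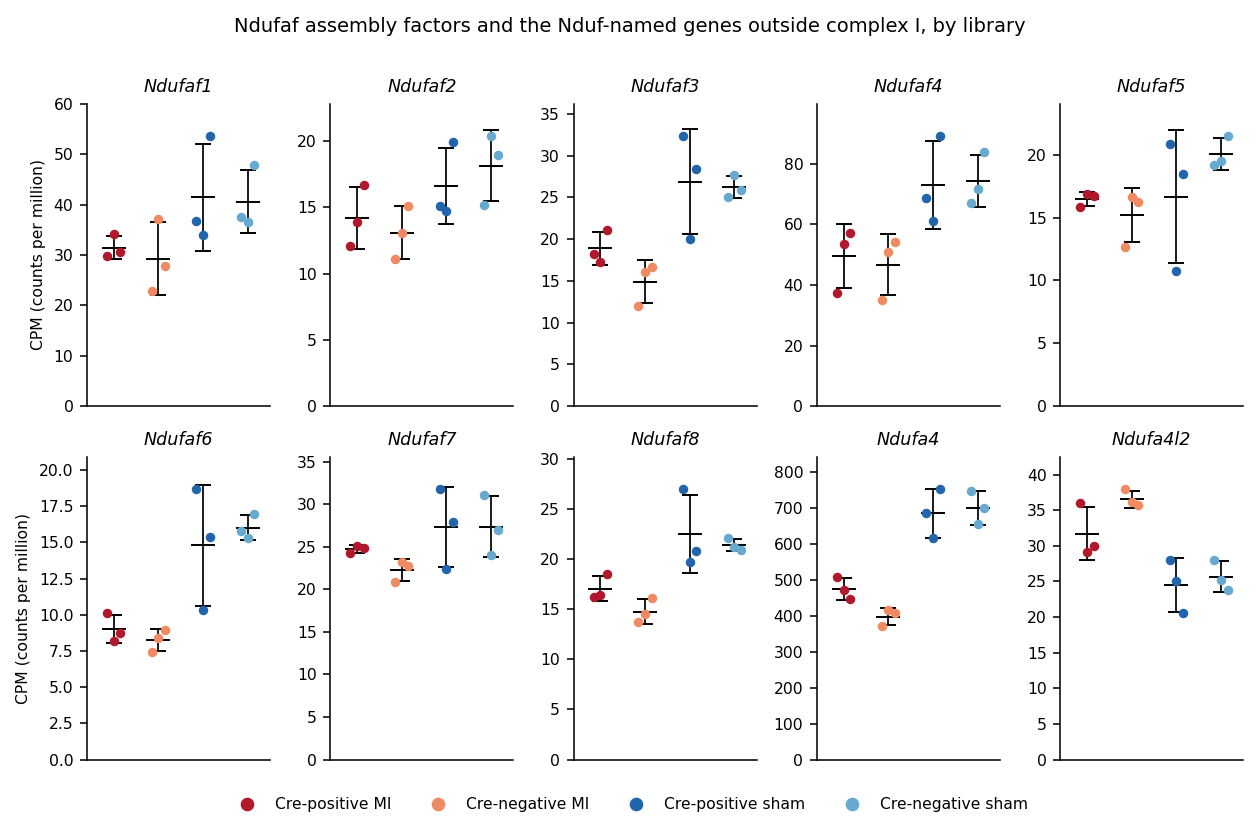
CPM (vertical axes, from 0) of the 8 Ndufaf assembly factors, Ndufa4 and Ndufa4l2 in the 12 libraries, grouped from left to right as Cre-positive MI, Cre-negative MI, Cre-positive sham and Cre-negative sham. Points are libraries, ticks are means and bars are SD (n = 3); Ndufa4l2 is the only gene shown whose MI points lie above its sham points.

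Ndufa4 and its paralogue Ndufa4l2 moved in opposite directions. Ndufa4 had 509, 473 and 447 CPM in Cre-positive MI hearts, against 687, 617 and 753 CPM in Cre-positive sham hearts (-0.53 ± 0.10, adjusted p = 0.0015). In Cre-negative hearts it had 371, 415 and 409 CPM after MI, against 749, 655 and 699 CPM after sham (-0.82 ± 0.11, adjusted p = 4.3e-05). It thus fell in both genotypes. Ndufa4l2, known as a gene induced by hypoxia through HIF-1 (gene 407790, chr10:127509274-127517154), was the only member called higher. It had 36.0, 29.2 and 29.9 CPM in Cre-positive MI hearts, against 28.0, 25.0 and 20.5 CPM in Cre-positive sham hearts (0.37 ± 0.13, adjusted p = 0.032). The Cre-negative levels were 37.9, 36.1 and 35.7 CPM after MI, against 28.0, 25.2 and 23.8 CPM after sham (0.51 ± 0.13, adjusted p = 0.0047).

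MI and sham did not overlap for Ndufa4l2 in either genotype. The Cre-positive call was lost without Cre-positive MI replicate 1, Cre-positive sham replicate 2 or 3, or any single Cre-negative sham library (adjusted p = 0.056 to 0.18), and the authors' deposited table gave it an adjusted p of 0.20. Exons of Ndufa4l2 overlap those of Shmt2 on the opposite strand, and whether counting used strand is not given in the sources used here, so reads of that pair cannot be fully told apart. Of 17 hypoxia-induced genes measured, 3 rose and 3 fell in Cre-positive hearts, and 6 rose and 5 fell in Cre-negative hearts. Among all tested genes 25.7% rose and 19.5% fell in Cre-positive hearts, and 29.9% rose and 24.4% fell in Cre-negative hearts. The carbonic anhydrase gene Car9 rose by 2.81 ± 0.67 in Cre-positive (adjusted p = 0.0046) and by 3.43 ± 0.64 in Cre-negative hearts (adjusted p = 0.00069). Egln1, a prolyl hydroxylase that marks HIF for degradation, fell, at -0.81 ± 0.14 and -1.19 ± 0.14 in these genotypes (adjusted p = 0.00065 and 2.5e-05). Of 8 pericyte markers, 2 rose and 2 fell in Cre-positive hearts, and 3 rose and 4 fell in Cre-negative hearts.

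Between genotypes after MI no member was called, as 0% of all tested genes were. The values nevertheless leaned one way, across genes that share libraries and are not independent. Of the 46 members 45 had a log2 fold change of Cre-positive over Cre-negative above 0, where 6660 of 13678 tested genes did. The subunits had a median of 0.26, against -0.01 for all genes tested. The lean was not particular to complex I. Of 41 genes of complexes II to V, 40 were above 0, with a median of 0.29, and 28 had an unadjusted p under 0.05. The Cre-positive libraries lay above all Cre-negative libraries for 34 members, of which 30 were subunits, against 12% of all tested genes. An unadjusted p under 0.05 was found for 18 members, 17 of them subunits, where 12.6% of all tested genes had one, and the members' adjusted p-values ran from 0.22 to 0.92. Ndufb9 had the smallest, with 422, 434 and 408 CPM in Cre-positive MI hearts, against 295, 335 and 347 CPM in Cre-negative MI hearts (0.37 ± 0.09, adjusted p = 0.22).

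Ndufv1 followed with 478, 516 and 436 CPM in Cre-positive MI hearts, against 373, 356 and 378 CPM in Cre-negative MI hearts (0.37 ± 0.10, adjusted p = 0.25). Ndufs1 was at 0.36 ± 0.11 (adjusted p = 0.27), and Ndufb10, of the distal arm, had 306, 335 and 334 CPM in Cre-positive MI hearts, against 210, 266 and 281 CPM in Cre-negative MI hearts (0.36 ± 0.15, adjusted p = 0.35). The groups were apart for these genes. Among the assembly factors the median was 0.13, and at the low end Ndufaf4 was at 0.08 ± 0.20, Ndufaf1 at 0.10 ± 0.20 and Ndufaf2 at 0.12 ± 0.17 (adjusted p = 0.92, 0.89 and 0.84). Ndufa4l2 was the member below 0, at -0.21 ± 0.12 (adjusted p = 0.53). DESeq2 called 3 members higher, namely Ndufa1, Ndufb9 and Ndufv1 (adjusted p = 0.038, 0.00062 and 0.037), where it called 0.753% of 11548 genes higher. The authors' deposited table has 11 of 36 subunits higher at an adjusted p under 0.05, with Ndufb9 at a log2 fold change of 0.39, and 2.21% of the 17182 genes with an adjusted p in it were higher.

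Part of the MI difference came with a single library. Cre-negative MI replicate 1 was the lowest of the 6 MI libraries in 44 of 46 members, at a median of 0.77 times the mean of the others, and without it the subunit median was 0.17. The same library had the lowest cardiomyocyte marker sum, 54016 CPM. The marker sums were 77171 to 92123 CPM in Cre-positive MI hearts and 54016 to 74718 CPM in Cre-negative MI hearts, and all 13 markers were above 0 in this comparison, with a median of 0.36 and 0 called. Reads from Y-linked genes were present in 1 of 3 Cre-positive and 3 of 3 Cre-negative MI libraries, and with these reads as a term in the fit the subunit median was 0.28 and 0 members were called.

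After sham surgery the genotypes lay close together. No member was called, where 0.0512% of all tested genes were, and Cre-positive and Cre-negative libraries overlapped for all 46, where 5.50% of all tested genes were higher and 5.14% lower without overlap. The subunit median was -0.03, or 0.09 without Cre-positive sham replicate 2, and 0 members had an unadjusted p under 0.05 or a DESeq2 call, where 8.21% and 0.346% of all genes did. Y-linked reads were present in 0 of 3 Cre-positive and 2 of 3 Cre-negative sham libraries. At the ends stood Ndufv1, at 0.15 ± 0.10 (adjusted p = 0.69), and Ndufaf5, at -0.26 ± 0.20 (adjusted p = 0.71). Ndufa7, of the N module, had 198, 200 and 201 CPM in Cre-positive sham hearts, against 200, 171 and 189 CPM in Cre-negative sham hearts (0.10 ± 0.10, adjusted p = 0.78). Ndufb11, of the distal arm, had 540, 428 and 500 CPM in Cre-positive sham hearts, against 473, 447 and 457 CPM in Cre-negative sham hearts (0.09 ± 0.10, adjusted p = 0.80). At the low end Ndufs4 had 161, 114 and 169 CPM in Cre-positive sham hearts, against 166, 165 and 179 CPM in Cre-negative sham hearts (-0.20 ± 0.14, adjusted p = 0.69), and the 114 CPM of replicate 2 lay far from the rest.

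Whether the injury response differed between genotypes was tested directly, and 0 members were called, as 0% of all tested genes were. The difference was above 0, that is a smaller fall in Cre-positive hearts, for 45 of 46 members, and above 0 for 6918 of 13678 tested genes. The subunit median was 0.29, and the members' adjusted p-values were 0.55 to 0.96. Of 41 genes of complexes II to V, 38 were above 0, with a median of 0.28. An unadjusted p under 0.05 was found for 9 members, all of them subunits, where 8.16% of all tested genes had one, and DESeq2 called 0 members and 0.434% of the genes it tested. The values at the top were 0.48 ± 0.16 for Ndufs1, 0.48 ± 0.20 for Ndufa5, 0.45 ± 0.19 for Ndufs4 and 0.42 ± 0.16 for Ndufs6, a zinc-binding subunit of the N module (adjusted p = 0.55, 0.60, 0.60 and 0.60). Ndufs6 had 185, 195 and 184 CPM in Cre-positive MI, 132, 156 and 163 CPM in Cre-negative MI, 309, 247 and 321 CPM in Cre-positive sham and 296, 321 and 324 CPM in Cre-negative sham hearts. At the low end Ndufa4l2 was at -0.14 ± 0.18 and Ndufaf1 at 0.08 ± 0.28 (adjusted p = 0.85 and 0.96), and the lowest subunit, Ndufa7, was at 0.13 ± 0.14 (adjusted p = 0.82). The subunit median was 0.16 without Cre-positive sham replicate 2 and was 0.19 without Cre-negative MI replicate 1. The comparisons share libraries, so they are not independent of each other.

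**Figure D4:**
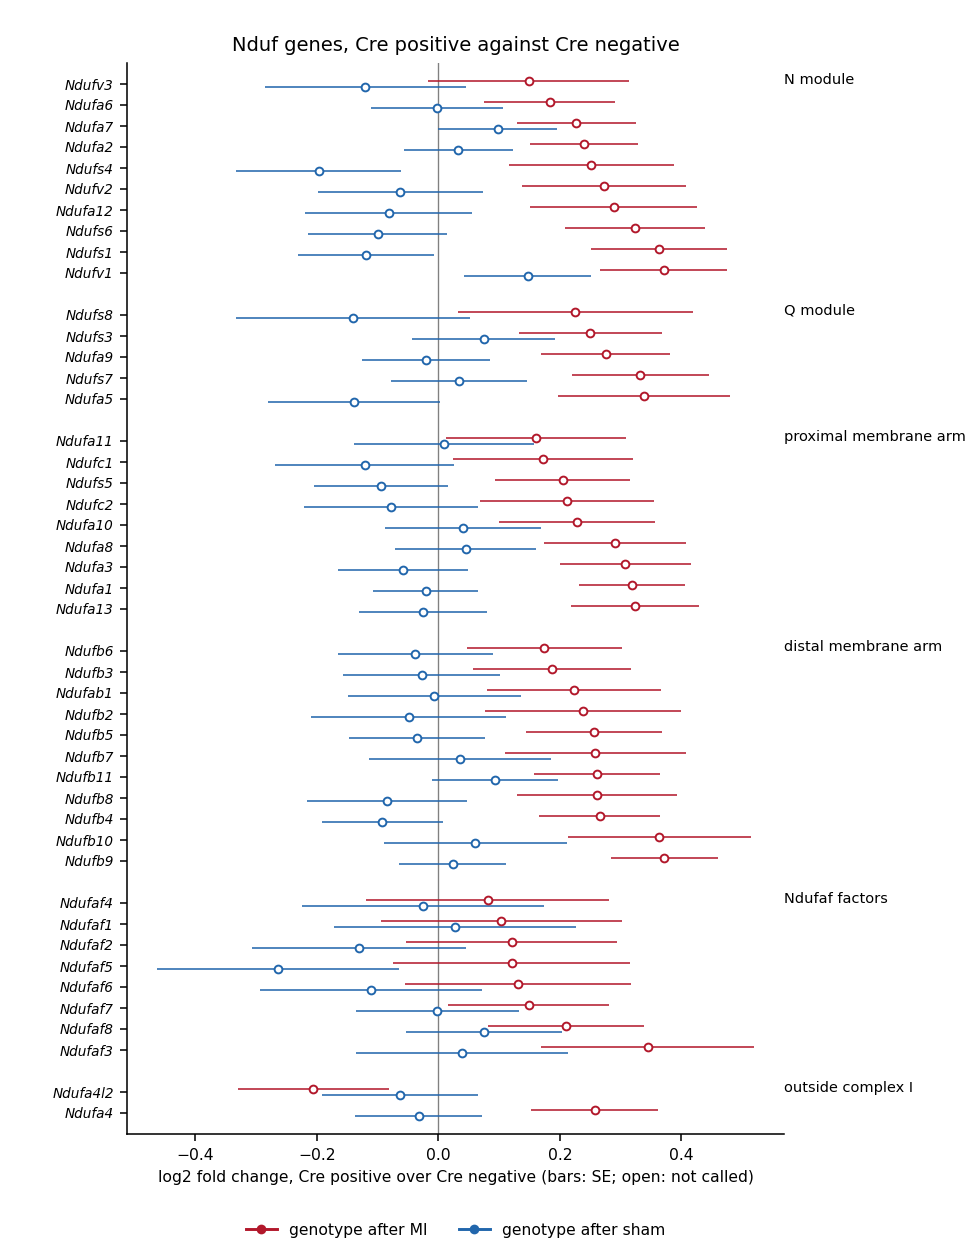
Log2 fold change of Cre-positive over Cre-negative hearts (horizontal axis) with its SE for 45 Nduf genes, after MI (upper, red) and after sham surgery (lower, blue), by place in complex I. All points are open because no member was called; after MI 44 of the 45 lie above 0, and after sham 15 do.

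The subunits were also set against the cardiomyocyte markers, library by library. The mean log2 CPM of the 36 subunits minus that of the 13 markers lay between -4.59 and -4.38 in Cre-positive MI hearts and between -4.50 and -4.36 in Cre-negative MI hearts. It lay between -4.55 and -4.31 in Cre-positive sham hearts and between -4.52 and -4.40 in Cre-negative sham hearts, so all groups overlapped. Over all libraries it thus ran from -4.59 to -4.31. Whether the markers' own expression per cell changed was not tested. When libraries were scaled to these markers instead, an alternative added after the data were seen, 0 members were lower, where 0.592% of all tested genes were in Cre-positive and 0.716% in Cre-negative hearts. This scaling shifted the median of all genes to 0.54 in the Cre-positive and 1.01 in the Cre-negative injury comparison. The subunit medians became -0.08 in Cre-positive hearts, where no subunit was called, and 0.08 in Cre-negative hearts, where Ndufa11 and Ndufb6 were called higher. Ndufa4l2 was higher in both genotypes on this scale. Of the assembly factors Ndufaf5 was higher in Cre-positive hearts, and Ndufaf1, Ndufaf2, Ndufaf5, Ndufaf7 and Ndufaf8 in Cre-negative hearts. On this scale 43.7% of all tested genes were called higher in Cre-positive hearts and 76.2% in Cre-negative hearts, so nothing is read from the members' calls. Between genotypes after MI the scaling moved all genes alike, and the median was -0.11 for the subunits and -0.39 for all genes.

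Markers of several other cell types were higher after MI. Among all tested genes 25.7% rose and 19.5% fell in Cre-positive hearts, and 29.9% rose and 24.4% fell in Cre-negative hearts. Of 10 macrophage markers 9 rose in Cre-positive hearts (median 2.85) and 9 in Cre-negative hearts (median 2.71), and 7 of 8 fibroblast markers rose in both. Of 6 neutrophil markers, 2 rose in Cre-positive and 5 in Cre-negative hearts. Of 7 endothelial markers 0 rose and 1 fell in Cre-positive hearts, and 1 rose and 1 fell in Cre-negative hearts. Of the adipocyte markers 4 of 6 tested rose, and of the skeletal muscle markers 2 of 3 tested, in each genotype. The part of these cells in the lower complex I levels was not tested.

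**Figure D5:**
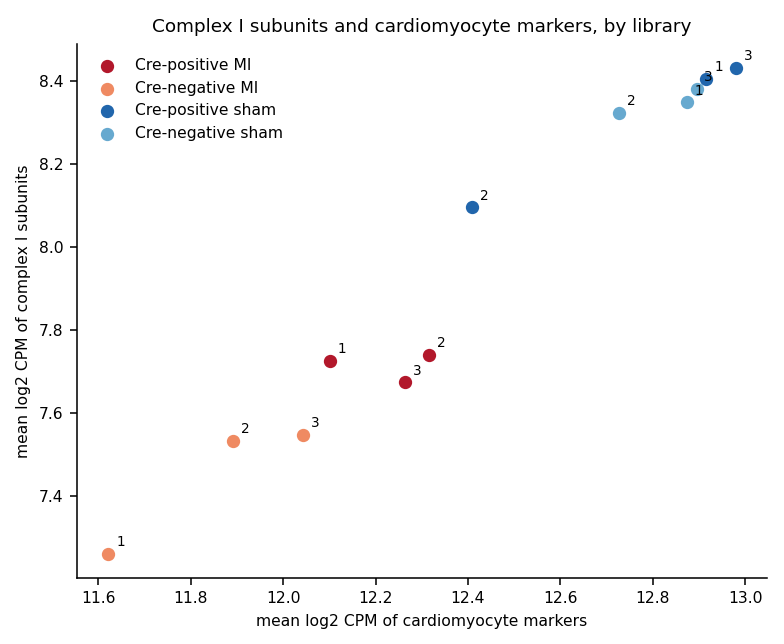
Mean log2 CPM of the 36 complex I subunits (vertical axis) against that of 13 cardiomyocyte markers (horizontal axis) in each of the 12 libraries, coloured by group and labelled with the replicate number. Libraries run along a diagonal, with Cre-negative MI replicate 1 lowest (7.26) and Cre-positive sham replicate 2 (8.10) between the other sham libraries and the MI libraries.

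The rest of the respiratory chain and its assembly followed the same direction. Of 41 genes of complexes II to V, 38 fell and 0 rose in Cre-positive hearts (median -0.59), and 39 fell and 1 rose in Cre-negative hearts (median -0.89). Among all tested genes 19.5% fell in Cre-positive and 24.4% in Cre-negative hearts. Cox8b and Cox6a2, muscle forms of complex IV subunits, were at -0.98 ± 0.14 and -0.92 ± 0.12 in Cre-positive hearts and at -1.41 ± 0.14 and -1.21 ± 0.13 in Cre-negative hearts (adjusted p = 0.00012, 9.2e-05, 5.2e-06 and 7.4e-06). The gene that rose in Cre-negative hearts was Cox6a1, the form found outside striated muscle (0.49 ± 0.09, adjusted p = 0.00068), which was at 0.16 ± 0.09 in Cre-positive hearts (adjusted p = 0.18). Of 12 further complex I assembly factors, 8 fell in Cre-positive hearts (median -0.44) and 11 in Cre-negative hearts (median -0.60). Ecsit, of the MCIA complex, was at -0.81 ± 0.10 in Cre-positive (adjusted p = 3.6e-05) and -0.97 ± 0.10 in Cre-negative hearts (adjusted p = 6.1e-06). Of 78 mitochondrial ribosomal proteins, 44 fell in Cre-positive (median -0.40) and 55 in Cre-negative hearts (median -0.50), and 0 rose in either.

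Most regulators of mitochondrial genes fell as well, 9 of 15 in Cre-positive and 11 of 15 in Cre-negative hearts. The shares of all tested genes that fell were 19.5% and 24.4%. Perm1, a muscle regulator of oxidative genes, was at -1.01 ± 0.14 in Cre-positive (adjusted p = 0.00011) and -1.18 ± 0.14 in Cre-negative hearts (adjusted p = 2.2e-05). The estrogen-related receptor genes Esrra and Esrrg, whose products bind promoters of respiratory chain genes, were at -0.61 ± 0.10 and -0.68 ± 0.13 in Cre-positive hearts and at -0.81 ± 0.10 and -1.05 ± 0.13 in Cre-negative hearts, called in both. Against most of the list, Gabpb1, a subunit of the ETS-family factor NRF-2, rose in Cre-positive (0.31 ± 0.09, adjusted p = 0.018) and Cre-negative hearts (0.46 ± 0.09, adjusted p = 0.0012). Pprc1, a coactivator related to PGC-1, was at 0.01 ± 0.15 in Cre-positive hearts (adjusted p = 0.96) and rose in Cre-negative hearts (0.84 ± 0.15, adjusted p = 0.00046). None of these lists had a called member between genotypes or in the difference of the injury response.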

How the data were processed

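Left ventricles gave 12 RNA sequencing libraries in 4 groups. Per the submitters' processing notes, Bowtie2 2.2.5, RSEM 1.2.12 and mm10 were used. Per the file headers, the authors' files give RSEM expected counts, transcript length and FPKM per gene. The authors also deposited a joined FPKM table (largest difference from the library files 0) and 4 comparison tables with a group signal (unit not stated, not used), log2 fold changes and p-values, of which the complex I rows are quoted as the authors'. Expected counts were rounded, and 74.0% of those deposited were whole.

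In R 4.3.3, edgeR 4.0.16 filtered genes (filterByExpr, minimum count 10, 3793 removed), scaled libraries by TMM and fitted 1 coefficient per group over all 12 libraries (residual degrees of freedom 8, prior 4.16, common dispersion 0.0272). P-values are two-sided, adjusted by Benjamini and Hochberg's method over 13678 genes in each contrast, and called under 0.05. Errors of fold changes are SE from this model. A floor of 3 counts, which covers counting error only, was 0.198 to 0.292 CPM. The fit was run on simulated data, where the check on recovery covered large changes only and left out the difference of the injury response. It does not show how well changes as small as those between genotypes are found. Alternatives were size factors by RLE, no filter, DESeq2 1.42.0, only the groups compared, limma 3.58.1 on log2(FPKM + 1) and log2(FPKM + 0.1), Y-linked reads or replicate number as a term, each library left out, and cardiomyocyte scaling.

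Members and lists were chosen with earlier results of these data known. Values in every library are given for core subunits (1 of the 7 is not reported singly here, in text or figures, but is in all counts and medians), Ndufa4, Ndufa4l2, Ndufaf genes and the 4 highest and 4 lowest fold changes per contrast, and of the other lists up to 4 genes with the smallest p and up to 2 called against the list are named. Exons of 19 members overlap those of another gene, and counts of 40 members were whole to within 0.005.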

Additional observations from a re-analysis of the deposited data

How the results depend on the processing

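When each library was left out in turn, 34 to 42 of 46 members were lower and 0 to 1 higher after MI in Cre-positive hearts, and 40 to 45 were lower and 1 higher in Cre-negative hearts. Directions of called members held under all settings tried except scaling to cardiomyocyte markers. In Cre-positive hearts 0 members were higher with RLE size factors, with only the groups compared and with Y-linked reads as a term. There 24 were lower on log2(FPKM + 1) and 24 on log2(FPKM + 0.1), where the median of all genes was 0.18 and 0.25. The subunit median on both scales was -0.39 there and -0.67 in Cre-negative hearts, where 38 members were lower on each. FPKM was taken without TMM scaling, and the part of this in the difference was not tested. The percent falls given above thus hold for the TMM scale. With only the groups compared, 32 were lower in Cre-positive and 45 in Cre-negative hearts. Scaled to cardiomyocyte markers, chosen after seeing the data, 2 were higher and 0 lower in Cre-positive hearts and 8 higher and 0 lower in Cre-negative hearts, where 43.7% and 76.2% of all tested genes were higher, and directions changed as given above. Between genotypes after MI, DESeq2 called 3 higher, and 0.753% of all genes it tested. With replicate number as a block, 40 members were lower in Cre-positive and 42 in Cre-negative hearts, 1 was higher in each and 0 were called in the other comparisons. Correlations of deviations between same-numbered libraries were -0.15 to 0.29, with 4 of 18 over 0.1. Between differently numbered libraries they were -0.31 to 0.22, with 8 of 36 over 0.1. The highest were between Cre-positive and Cre-negative MI libraries, at 0.29 for replicate 1 and 0.25 for replicate 3, while replicate 2 was at -0.01. As the ranges overlapped, the numbers were not taken to pair the samples. Calls lost on leaving out a library concerned 9 members in Cre-positive and 2 in Cre-negative hearts; besides those given above they were Ndufb6 (adjusted p = 0.069 to 0.11), Ndufc2 (0.051 to 0.15) and Ndufv3 (0.052), mostly without a Cre-positive library. With 3 libraries per group, the precision is limited by the spread between libraries.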
